A study of Mus musculus with 4 samples.

Results

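The open chromatin of 10 receptor genes was examined in WT and H3.3cKO macrophages. The genes were 5 Fc receptor genes (Fcgr1, Fcgr2b, Fcgr3, Fcgr4 and Fcer1g) and 5 scavenger receptor genes (Msr1, Cd36, Marco, Scarb1 and Mrc1), out of 55450 genes in the GENCODE vM21 annotation of the mouse build mm10. They were chosen by name as receptors with which macrophages take up antibody-coated or modified particles, and every ATAC-seq peak over a gene body or within 10 kb of it was taken. The 4 peak lists held 316 such peaks of 233520. Peaks of different lists that shared 1 bp or more were joined into a region, which gave 94 regions of 71243, with 35 at the Fc receptor genes and 59 at the scavenger receptor genes. No region lay in the windows of more than 1 of the 10 genes.

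ATAC-seq inserts adapters into accessible DNA with the transposase Tn5, so that peaks of reads mark open chromatin. The cells were bone marrow-derived macrophages (BMDMs), which are grown from marrow progenitors in medium conditioned by L929 cells, a source of the growth factor M-CSF, for 6 to 8 days per the labels and taken on day 7 per the study. There were 2 biological replicates of each genotype, and each library was made from 50000 cells of mice on a C57BL/6 background aged 8 to 10 weeks. WT mice were H3f3a fl/fl H3f3b fl/fl without Cre. H3.3cKO mice carried the same floxed alleles with LysM cre/cre, which drives Cre from the Lyz2 locus in myeloid cells, so that Lyz2 itself is altered in the H3.3cKO mice and not in the WT mice. The study described the deletion of H3f3b as variable, complete in some cultures and partial in others. Whether the mice behind a WT and an H3.3cKO library of the same number were related is not given in the sources used here.

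Fc gamma receptors bind the constant part of IgG and let macrophages engulf opsonized particles. Fcgr1, Fcgr3 and Fcgr4 are activating receptors that signal through the shared gamma chain encoded by Fcer1g, while Fcgr2b is the inhibitory receptor of the family and recruits phosphatases. Scavenger receptors bind modified lipoproteins, apoptotic cells and microbial surfaces. Msr1 and Marco are class A receptors with collagen-like stems, Cd36 and Scarb1 are class B receptors for fatty acids and lipoproteins, and Mrc1 is the mannose receptor, a lectin often used as a marker of alternatively activated macrophages.

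Sequences around the summits of 9 of these regions are shown: the called regions with C/EBP letters at Fcgr2b, Fcgr3 and Fcer1g that were lower, the lower Mrc1 region with the largest log2 difference, and 4 regions of Msr1 and Cd36 that were gained or passed with every library left out. Each is 201 bases long, centred on the summit of the peak with the highest percentile in the region, and is given 5′ to 3′ on the plus strand of mm10 (RefSeq assembly GRCm38.p6). Lower and higher refer to H3.3cKO against WT, gained marks a region found only in H3.3cKO, and capitals mark bases that matched 1 of the 7 motifs searched. Intron and upstream describe the centre of the region, and the summit shown can lie elsewhere, such as in an exon.
Fcgr2b intron, lower, chr1:170967646-170967846: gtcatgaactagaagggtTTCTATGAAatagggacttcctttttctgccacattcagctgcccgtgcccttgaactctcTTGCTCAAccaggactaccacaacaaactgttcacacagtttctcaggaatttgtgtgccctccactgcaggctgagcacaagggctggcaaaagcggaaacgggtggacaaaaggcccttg
Fcgr3 intron, lower, chr1:171057414-171057614: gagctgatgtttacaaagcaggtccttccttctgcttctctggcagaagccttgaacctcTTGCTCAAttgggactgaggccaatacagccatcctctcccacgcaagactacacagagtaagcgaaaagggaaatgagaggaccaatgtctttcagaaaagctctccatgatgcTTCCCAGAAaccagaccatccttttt
Fcgr3 start site, lower, chr1:171059373-171059573: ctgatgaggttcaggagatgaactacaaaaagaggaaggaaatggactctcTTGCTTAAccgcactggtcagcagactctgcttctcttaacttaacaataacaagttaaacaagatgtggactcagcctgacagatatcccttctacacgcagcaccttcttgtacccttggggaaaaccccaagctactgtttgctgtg
Fcer1g intron, lower, chr1:171233227-171233427: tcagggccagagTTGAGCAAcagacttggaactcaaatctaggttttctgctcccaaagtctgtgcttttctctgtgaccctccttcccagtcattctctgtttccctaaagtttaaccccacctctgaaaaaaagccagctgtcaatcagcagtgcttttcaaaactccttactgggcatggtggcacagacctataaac
Mrc1 intron, lower, chr2:14269249-14269449: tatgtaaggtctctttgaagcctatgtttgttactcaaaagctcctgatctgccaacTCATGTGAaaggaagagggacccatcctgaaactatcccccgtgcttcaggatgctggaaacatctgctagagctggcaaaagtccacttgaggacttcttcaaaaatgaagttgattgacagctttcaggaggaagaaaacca
Msr1 intron, higher, chr8:39619856-39620056: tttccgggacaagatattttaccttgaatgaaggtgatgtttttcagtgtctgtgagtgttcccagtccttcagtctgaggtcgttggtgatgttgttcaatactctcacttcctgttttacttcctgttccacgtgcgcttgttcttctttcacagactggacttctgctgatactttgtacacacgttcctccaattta
Msr1 upstream, gained, chr8:39648535-39648735: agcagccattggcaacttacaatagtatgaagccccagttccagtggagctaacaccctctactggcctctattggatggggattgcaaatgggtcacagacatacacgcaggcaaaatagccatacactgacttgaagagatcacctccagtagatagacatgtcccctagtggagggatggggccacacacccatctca
Cd36 intron, higher, chr5:17842228-17842428: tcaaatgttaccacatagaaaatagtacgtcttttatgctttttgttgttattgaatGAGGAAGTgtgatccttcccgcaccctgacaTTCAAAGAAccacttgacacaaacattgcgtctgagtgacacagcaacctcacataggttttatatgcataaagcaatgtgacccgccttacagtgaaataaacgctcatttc
Cd36 inner start site, higher, chr5:17849684-17849884: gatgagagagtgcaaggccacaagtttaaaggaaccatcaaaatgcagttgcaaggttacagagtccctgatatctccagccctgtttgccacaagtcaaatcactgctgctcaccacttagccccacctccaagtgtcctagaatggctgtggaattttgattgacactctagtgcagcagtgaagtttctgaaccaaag

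The size of a peak was measured as the area that the authors' peak caller deposited for it, and the main value is its percentile, the share of peaks of the same library with an area no larger. The WT lists held 55742 and 64939 peaks and the H3.3cKO lists 51955 and 60884, covering 28.4 to 35.2 Mb, and the read depth behind them is unknown. In both genotypes the second library had the longer list and gave a higher percentile than the first in 90.4% (WT) and 87.8% (H3.3cKO) of the regions called in all 4 libraries, by a median of 4.55 and 4.63 points. The region over exon 2 of H3f3a, the exon that was floxed, was called in both WT libraries (percentiles 5.02 and 19.1) and in neither H3.3cKO library. The main H3f3b region stood at 94.2 and 95.5 in WT and at 87.0 and 81.4 in H3.3cKO, and its log2 peak area was lower by 0.71 (difference -0.71, SE 0.13, adjusted p = 0.0075, limma). All 6 macrophage markers examined (Adgre1, Itgam, Csf1r, Spi1, Cd14 and Lyz2) had a peak at a start site in every library. Markers of neutrophils were open at 0 to 1 of 5 genes per library and of endothelial cells at 1 of 3. Those of B cells, T cells and stromal cells were each open at 0 to 1 of 4. The open ones were Kdr in every library, Camp in all but H3.3cKO replicate 1 and Pdgfra in all but WT replicate 1. Ebf1 was open in WT replicate 2 and H3.3cKO replicate 1, and Cd2 in WT replicate 2. The other markers, among them Ly6g, Elane, Cd3e, Col1a1 and Cdh5, had no peak at a start site in any library.

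Both families were open in both genotypes. Of the 94 regions, 66 (70.2%) were called in all 4 libraries, against 62.9% of all regions. At the Fc receptor genes 1 region was gained (called in both H3.3cKO libraries and in neither WT library) and 2 were lost (the reverse), and at the scavenger receptor genes 4 were gained and 4 were lost. These 5 gained and 6 lost regions of 94 compare with 3.72% gained and 7.25% lost over all regions. Gained and lost regions were weak on the whole: over the genome they had median percentiles of 19.0 and 19.8, against 59.7 for regions called in all libraries. The other 17 regions had another combination of calls.

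**Figure D1:**
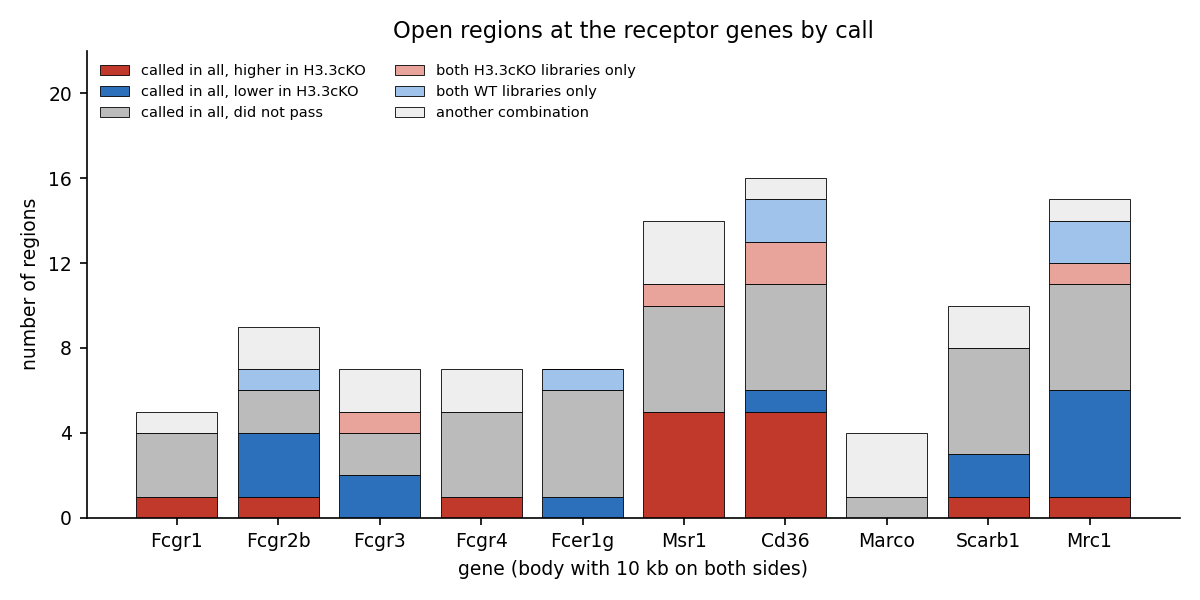
Stacked bars give the number of open regions (y axis) at each of the 10 genes (x axis) by call, where dark red and dark blue are regions called in all 4 libraries with higher or lower peak area in H3.3cKO by limma, grey those that did not pass, pale colours regions found in both libraries of only 1 genotype, and white other combinations. Msr1 and Cd36 each have 5 dark red regions and Mrc1 has 5 dark blue ones.

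For the regions called in all 4 libraries, log2 peak areas were compared with limma after quantile normalization over all 44820 such regions, with Benjamini-Hochberg adjustment over all of them. Of the 25 Fc receptor regions, 3 had a higher and 6 a lower peak area in H3.3cKO, and 16 did not pass. Of the 41 scavenger receptor regions, 12 were higher and 8 lower, and 21 did not pass. Over all regions, 18.3% were higher and 18.7% were lower. The shares were 12.0% higher and 24.0% lower at the Fc receptor genes, and 29.3% and 19.5% at the scavenger receptor genes. With so few regions, the Fc receptor shares are only a few calls from the background. The lower Fc receptor calls were 3 at Fcgr2b, 2 at Fcgr3 and 1 at Fcer1g, with 0 at Fcgr1 and Fcgr4. The higher scavenger receptor calls were 5 at Msr1, 5 at Cd36 and 1 each at Scarb1 and Mrc1. The median log2 difference was 0.04 at the Fc receptor genes and 0.16 at the scavenger receptor genes, beside 0.0050 over all regions. With median centring in place of quantile normalization, under which the median log2 difference of all regions is 0.095, the split was 5 higher and 6 lower at the Fc receptor genes, 14 and 6 at the scavenger receptor genes, and 11419 and 6948 over all regions. These are counts over a few genes and were not tested as lists. In a bulk population, fewer open cells and less opening in each cell cannot be told apart.

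Without normalization across lists, by percentiles alone, the 2 values of H3.3cKO lay above both values of WT in 3 Fc receptor and 15 scavenger receptor regions, and below both in 9 and 13. Over all regions 22.2% lay above and 35.1% below. The median percentile difference over all regions was -1.10 points, so the percentile comparison leans toward lower values in H3.3cKO at large. With 2 libraries per genotype an exact permutation test of a single region cannot give a p below 0.333, so single regions rest on limma, which shares the spread over all regions. Of the 29 called regions, 9 also passed with each library left out in turn: 4 at Fcgr2b and Fcgr3, all lower, and 5 at Msr1, Cd36 and Scarb1, all higher.

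**Figure D2:**
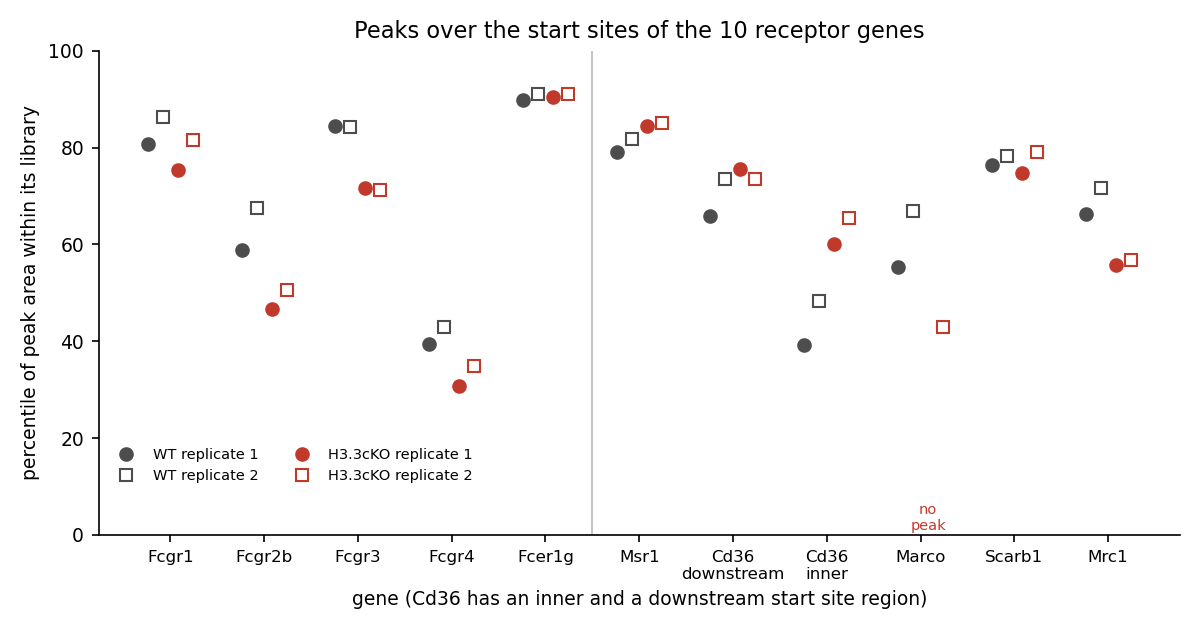
Points give the percentile of peak area within its library (y axis) for the 11 regions over start sites of the 10 genes (x axis), with grey for WT, red for H3.3cKO, filled circles for replicate 1 and open squares for replicate 2, and the grey line separating Fc receptor from scavenger receptor genes. Fcgr2b, Fcgr3, Fcgr4 and Mrc1 are lower in both H3.3cKO libraries, of which Fcgr4 did not pass limma. Msr1 and the inner Cd36 start site are higher, and Fcer1g lies between 89.9 and 91.1 in all 4 libraries.

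Fcgr2b, the inhibitory receptor, held the largest differences of the Fc receptor genes. The gene (ENSMUSG00000026656.15) lies on the minus strand of chromosome 1 at 170958617 to 170976547. An intronic region at chr1:170967535-170968011, centred 8354 bp into the gene from the nearest start site, had percentiles of 69.7 and 74.0 in the WT libraries and of 17.6 and 34.1 in the H3.3cKO libraries. Both H3.3cKO libraries were far below both WT libraries, and the log2 peak area difference was -1.59 (SE 0.12, adjusted p = 0.0006). With any library left out the difference ranged from -1.69 to -1.42, and it passed each time.

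The start site of Fcgr2b was lower as well. The region at chr1:170975541-170976376, over 3 annotated starts, had percentiles of 58.8 and 67.5 in WT and 46.7 and 50.5 in H3.3cKO, a log2 difference of -0.45 (SE 0.11, adjusted p = 0.022). The genotypes did not overlap there, but the call was lost without WT replicate 1, WT replicate 2 or H3.3cKO replicate 2 (adjusted p = 0.063, 0.13 and 0.064) and with the summit value in place of the area (adjusted p = 0.15). A region centred 5288 bp beyond the 3′ end of the gene (chr1:170953025-170953633) stood at 76.7 and 78.6 in WT and 57.3 and 61.0 in H3.3cKO, with a log2 difference of -0.68 (SE 0.09, adjusted p = 0.0022). It was the second Fcgr2b region to pass with every library left out.

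The gene also had a region that moved the other way. An intronic region at chr1:170962262-170962683 went from 23.5 and 33.1 to 37.9 and 45.7 in H3.3cKO, 0.57 higher on the log2 scale (SE 0.14, adjusted p = 0.019), and the call was lost without WT replicate 1 or 2 (adjusted p = 0.11 and 0.095). The region at chr1:170985158-170985609, centred 8836 bp upstream in the gene model Gm10522, was called only in WT, at 42.4 and 46.7, the highest percentiles of the 6 lost regions. An exonic region near the 3′ end (57.4, 58.5 in WT and 42.6, 50.5 in H3.3cKO) was lower in both H3.3cKO libraries without passing (adjusted p = 0.096), and an intronic one, which also covers a start of the gene model Gm38204, overlapped between genotypes. The other 2 regions of the gene lay just upstream and were called in 3 libraries each, at percentiles of 6.24 to 40.2.

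Fcgr3, an activating receptor, was lower at its start site and in the adjacent intron. The gene (ENSMUSG00000059498.13) lies on the minus strand of chromosome 1 at 171051174 to 171064935, and the region over the starts of the main transcripts (chr1:171058974-171059726) stood at 84.4 and 84.2 in WT and at 71.6 and 71.2 in H3.3cKO. The replicates of each genotype were within 1 point of each other, and the log2 difference was -0.54 (SE 0.10, adjusted p = 0.0067). The intronic region centred 1874 bp downstream (chr1:171057244-171057815) had 61.1 and 70.9 in WT and 42.2 and 48.5 in H3.3cKO, a log2 difference of -0.68 (SE 0.11, adjusted p = 0.0056). Both passed with every library left out.

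On the 3′ side of Fcgr3 no region passed. A region across the 3′ end had percentiles of 65.7 to 73.2 and a region further downstream 82.1 to 85.3, and in both the genotypes overlapped. The region gained in H3.3cKO (chr1:171074363-171074606), centred 9549 bp upstream of the gene body, was weak, at 19.8 and 31.6. Another 2 regions upstream of the main start site were called in H3.3cKO replicate 2 alone, at 33.0 and 14.4, and the stronger of these covers the microRNA gene Mir6546.

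Fcgr4, an activating receptor for some IgG classes, differed in its first intron. The gene (ENSMUSG00000059089.4) lies on the plus strand of chromosome 1 at 171018920 to 171029761, between Fcgr2b and Fcgr3. A region at chr1:171019387-171019985, centred 766 bp downstream of the start, rose from 36.8 and 44.1 in WT to 49.4 and 54.2 in H3.3cKO, 0.52 on the log2 scale (SE 0.12, adjusted p = 0.018). It no longer passed without WT replicate 1, WT replicate 2 or H3.3cKO replicate 1 (adjusted p = 0.076, 0.087 and 0.058) or by the summit value (adjusted p = 0.089). The start site itself was weaker than at the other Fc receptor genes, at 39.4 and 43.0 in WT and 30.7 and 34.8 in H3.3cKO. These percentiles did not overlap, but the limma difference did not pass (adjusted p = 0.40), and neither did the other 3 regions called in all libraries. Another 2 regions were called in 3 libraries each, at percentiles of 5.16 to 34.9.

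Fcgr1, the high-affinity IgG receptor, had 1 region that passed, of 4 tested. The gene (ENSMUSG00000015947.10) lies on the minus strand of chromosome 3 at 96282909 to 96293969, and its start site region stood at 80.7 and 86.3 in WT and 75.3 and 81.6 in H3.3cKO, so that the ranges overlapped. The region centred 8865 bp upstream (chr3:96302632-96303036) was the one that passed, with 58.9 and 62.6 in WT and 65.3 and 69.1 in H3.3cKO and a log2 difference of 0.35 (SE 0.09, adjusted p = 0.025). That call was lost without WT replicate 1, WT replicate 2 or H3.3cKO replicate 1 (adjusted p = 0.065, 0.12 and 0.081). A strong upstream region (87.0 to 92.3) and a downstream one (64.6 to 74.0) overlapped between genotypes, and a weak intronic region was called in the second library of each genotype only.

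Fcer1g, which encodes the signalling chain shared by the activating receptors, kept a strong start site in both genotypes. The gene (ENSMUSG00000058715.11) lies on the minus strand of chromosome 1 at 171229572 to 171234365. Its start site region stood at 89.9 and 91.1 in WT and at 90.4 and 91.1 in H3.3cKO, the highest percentiles among the start site regions of the 10 genes in each library. An intronic region centred 1001 bp from the nearest start (chr1:171232824-171233788) was lower, at 35.4 and 41.5 in WT and 11.9 and 10.6 in H3.3cKO, with a log2 difference of -0.79 (SE 0.18, adjusted p = 0.017). It did not pass without WT replicate 1 or 2 (adjusted p = 0.085 and 0.055) or by the summit value (adjusted p = 0.11). An intronic region at chr1:171230943-171231296 was called in WT only, at 4.25 and 11.8, near the lowest areas a list can hold. Another intronic region (69.9 to 76.8) did not pass, and the 3 downstream regions, which lie in or near the neighbours Tomm40l and Apoa2, overlapped between genotypes.

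The Fcgr genes are related in sequence, and filters on reads that align to several places are not given in the sources used here. Runs of identical bases were compared between summit windows of different genes only. For pairs from Fcgr2b, Fcgr3 and Fcgr4 whose regions both passed, the longest was 11, shared by the Fcgr2b intron with both Fcgr3 regions. Over all 175 pairs between these 3 genes it was 19, and whether that run comes from the relation of the Fcgr genes was not examined. That pair was an Fcgr3 region called in H3.3cKO replicate 2 alone, which was not tested, and an Fcgr4 region that did not pass. Within Fcgr3, the windows of that region and of the gained region share a longer run.

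**Figure D3:**
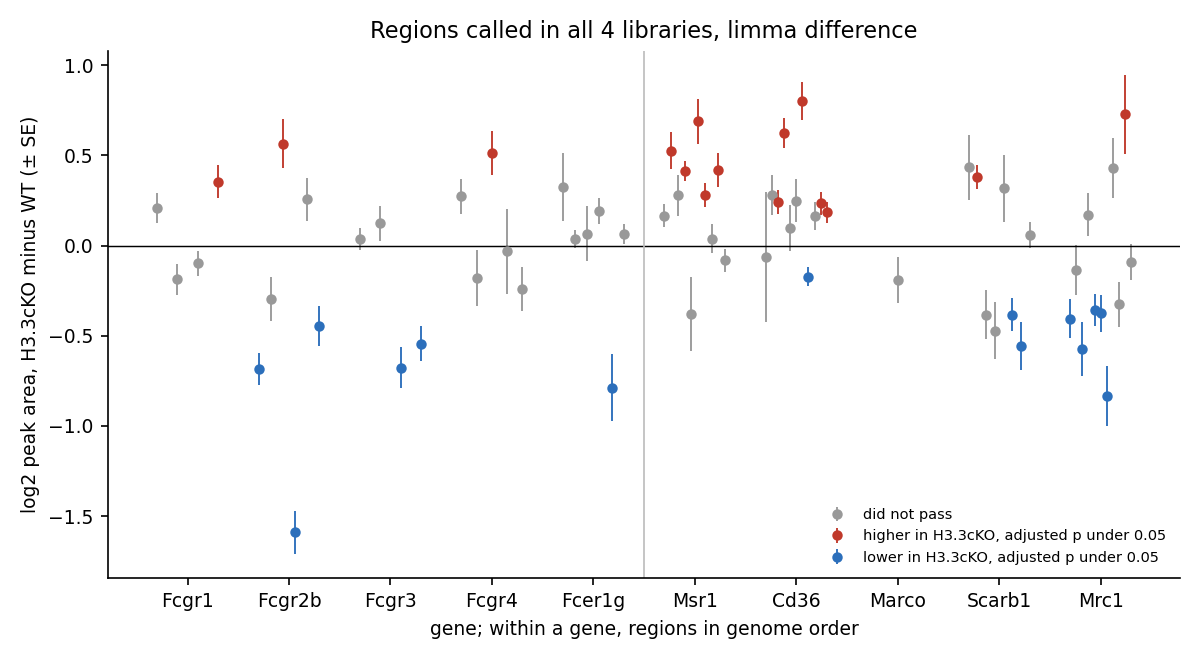
Points give the log2 peak area difference, H3.3cKO minus WT, with its SE (y axis) for the 66 regions called in all 4 libraries, by gene (x axis) and in genome order within a gene, with red and blue for regions that passed as higher or lower and grey for those that did not. The lowest point is the Fcgr2b intron at -1.59, and the red points gather at Msr1 and Cd36.

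Msr1, the class A scavenger receptor, had higher peak areas along the gene. The gene (ENSMUSG00000025044.16) lies on the minus strand of chromosome 8 at 39581685 to 39642673, and 5 of its 10 regions called in all libraries passed as higher and 0 as lower. At the start site (chr8:39642508-39643275) the percentiles were 79.2 and 81.9 in WT and 84.4 and 85.1 in H3.3cKO, a log2 difference of 0.28 (SE 0.07, adjusted p = 0.018). The genotypes did not overlap, but the call was lost without WT replicate 1, WT replicate 2 or H3.3cKO replicate 1 (adjusted p = 0.063, 0.068 and 0.073).

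The strongest Msr1 region, of 1297 bp at chr8:39619554-39620850, had its centre in an intron, and the place of its summit was not annotated. It stood at 90.7 and 93.1 in WT and 95.8 and 96.0 in H3.3cKO. Its log2 difference was 0.42 (SE 0.06, adjusted p = 0.0027), and it passed with every library left out, as did a second intronic region (chr8:39601585-39602269) at 54.8 and 57.2 in WT and 63.5 and 70.0 in H3.3cKO (log2 difference 0.53, SE 0.10, adjusted p = 0.0092). The largest log2 difference, 0.69 (SE 0.13, adjusted p = 0.0074), was at chr8:39641493-39642176, centred 786 bp inside the gene, with 26.9 and 40.6 in WT and 46.8 and 54.2 in H3.3cKO. Without WT replicate 1 that difference was 0.59 (adjusted p = 0.054).

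Upstream of Msr1, the region at chr8:39649872-39650497 rose from 53.7 and 59.6 to 62.5 and 67.3 (log2 difference 0.42, SE 0.09, adjusted p = 0.014), and the call was lost without either WT library (adjusted p = 0.059 and 0.066). Between it and the start site lay a region gained in H3.3cKO (chr8:39648472-39648814, centred 5970 bp upstream), at 44.6 and 58.4, the highest percentiles of the 5 gained regions. Of the 5 regions that did not pass, an intronic one (38.8 and 37.7 in WT, 23.9 and 23.8 in H3.3cKO) was lower in both H3.3cKO libraries, with an adjusted p of 0.18. The other 3 regions had another combination of calls, at percentiles of 0.842 to 31.8.

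Cd36, the class B receptor for fatty acids and oxidized lipoproteins, was higher at an inner start site and in the introns around it. The gene (ENSMUSG00000002944.15) lies on the minus strand of chromosome 5 at 17781690 to 17888801 and has several annotated starts. The region over an inner start site, shared by a pair of transcripts (chr5:17849628-17849962), stood at 39.3 and 48.4 in WT and 60.1 and 65.4 in H3.3cKO, with a log2 difference of 0.80 (SE 0.10, adjusted p = 0.0024), the largest positive log2 difference among the 66 regions called in all libraries. The region over the start site of another pair of transcripts further downstream had 65.9 and 73.5 in WT and 75.6 and 73.5 in H3.3cKO and did not pass (adjusted p = 0.087).

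Between these start sites, the region at chr5:17842088-17842819 rose from 60.0 and 68.9 to 74.9 and 79.2 (log2 difference 0.62, SE 0.09, adjusted p = 0.0028). It and the inner start site passed with every library left out. Another 3 intronic regions, all at percentiles of 81.7 or more in WT, passed as higher by 0.18 to 0.24 on the log2 scale. Their calls were lost without 3 or 4 of the 4 libraries (adjusted p up to 0.20). A strong region at chr5:17854215-17855094 was slightly lower in H3.3cKO, at 92.2 and 93.3 against 89.2 and 90.4 (log2 difference -0.17, SE 0.05, adjusted p = 0.043), and it was 0.0073 under median centring and passed in none of the fits with a library left out (adjusted p = 0.086 to 0.15).

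Cd36 also had 2 gained and 2 lost regions. The gained regions lay downstream of the gene (chr5:17778130-17779049, at 25.6 and 40.3) and next to the inner start site (chr5:17850477-17850880, at 9.33 and 24.5). The lost regions were intronic, at chr5:17815261-17815598 (11.8 and 38.6) and chr5:17881785-17882223 (19.5 and 24.3). All 4 were in the weaker part of their lists. The other 4 tested regions overlapped between genotypes or did not pass, and a downstream region was called in H3.3cKO replicate 2 alone.

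Mrc1, the mannose receptor, had lower peak areas at the start site and through its introns. The gene (ENSMUSG00000026712.3) lies on the plus strand of chromosome 2 at 14229392 to 14332057, and 5 of its 11 regions called in all libraries passed as lower and 1 as higher. At the start site (chr2:14228942-14229694) the percentiles were 66.3 and 71.6 in WT and 55.8 and 56.8 in H3.3cKO, a log2 difference of -0.41 (SE 0.11, adjusted p = 0.026). The genotypes were separate, but the call was lost without WT replicate 1, WT replicate 2 or H3.3cKO replicate 2 (adjusted p = 0.091, 0.10 and 0.076).

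The largest Mrc1 difference was in an intron at chr2:14269202-14269555, centred 39986 bp from the start. It stood at 51.3 and 65.5 in WT and at 31.9 and 33.5 in H3.3cKO, with a log2 difference of -0.83 (SE 0.17, adjusted p = 0.010), and -0.69 (adjusted p = 0.057) without WT replicate 2. The strongest region of the gene, at chr2:14249749-14250599, had 88.0 and 88.9 in WT and 81.8 and 80.3 in H3.3cKO, and its log2 difference of -0.36 (SE 0.09, adjusted p = 0.020) did not pass without WT replicate 1 or H3.3cKO replicate 2 (adjusted p = 0.073 and 0.054), by the summit value (adjusted p = 0.14) or under median centring (adjusted p = 0.12). The other 2 lower regions differed by -0.57 (32.3 and 44.7 in WT, 14.7 and 22.8 in H3.3cKO) and -0.38 (66.6 and 68.4, 52.7 and 57.6). With a library left out their adjusted p reached 0.14 and 0.17, the first passed in none of these fits, and it did not pass by the summit value (adjusted p = 0.059).

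A region centred 4007 bp beyond the 3′ end of Mrc1 (chr2:14335753-14336375) was higher, at 8.75 and 29.7 in WT and 41.5 and 35.8 in H3.3cKO (log2 difference 0.73, SE 0.22, adjusted p = 0.040). It did not pass without WT replicate 1, WT replicate 2 or H3.3cKO replicate 1 (adjusted p = 0.23, 0.058 and 0.099) or by the summit value (adjusted p = 0.55). The regions found only in WT were very weak, at 6.77 and 16.2 (chr2:14228589-14228838, 679 bp upstream) and 4.39 and 5.27 (chr2:14239558-14239794). The region gained in H3.3cKO (chr2:14295409-14295708) was intronic, at 29.7 and 33.0. The other 5 regions called in all libraries did not pass, and 1 weak region was called in WT replicate 2 alone.

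Scarb1, the class B receptor for high-density lipoprotein, had called regions in both directions, none of them at the start site. The gene (ENSMUSG00000037936.15) lies on the minus strand of chromosome 5 at 125277087 to 125341094, and its start site region overlapped between genotypes, at 76.3 and 78.3 in WT and 74.7 and 79.1 in H3.3cKO. An intronic region centred 1818 bp from the start (chr5:125339054-125339453) was lower, at 61.7 and 63.8 in WT and 35.9 and 52.5 in H3.3cKO (log2 difference -0.56, SE 0.13, adjusted p = 0.019), and another (chr5:125332917-125333499) stood at 68.7 and 72.2 against 56.9 and 60.2 (log2 difference -0.38, SE 0.09, adjusted p = 0.020). Neither passed without WT replicate 1 (adjusted p = 0.10 for both), and each was lost without 1 or 2 further libraries (adjusted p = 0.059 to 0.068).

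The Scarb1 region beyond the 3′ end (chr5:125273630-125274217, centred 3164 bp from it) was higher, at 74.7 and 79.0 in WT and 81.2 and 85.1 in H3.3cKO, with a log2 difference of 0.38 (SE 0.07, adjusted p = 0.0067). It passed with every library left out. The other 4 regions tested did not pass, and 2 of these, both intronic, were lower in both H3.3cKO libraries (adjusted p = 0.067 and 0.054). A downstream one, at 14.2 and 32.0 in WT and 33.2 and 34.1 in H3.3cKO, was higher in both (adjusted p = 0.099). Another 2 regions were each called in 1 library, at 2.27 and 5.11.

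Marco, the other class A receptor, was the least open of the 10 genes. The gene (ENSMUSG00000026390.7) lies on the minus strand of chromosome 1 at 120474538 to 120505024, with 4 regions, of which 1 was called in all libraries. The start site (chr1:120504541-120505091) had a peak in WT at 55.4 and 66.8, none in H3.3cKO replicate 1 and one at 43.0 in H3.3cKO replicate 2. It was therefore neither lost nor tested. The region called in all libraries lay downstream, at 47.1 and 59.4 in WT and 39.1 and 50.7 in H3.3cKO, with overlapping ranges.

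**Figure D4:**
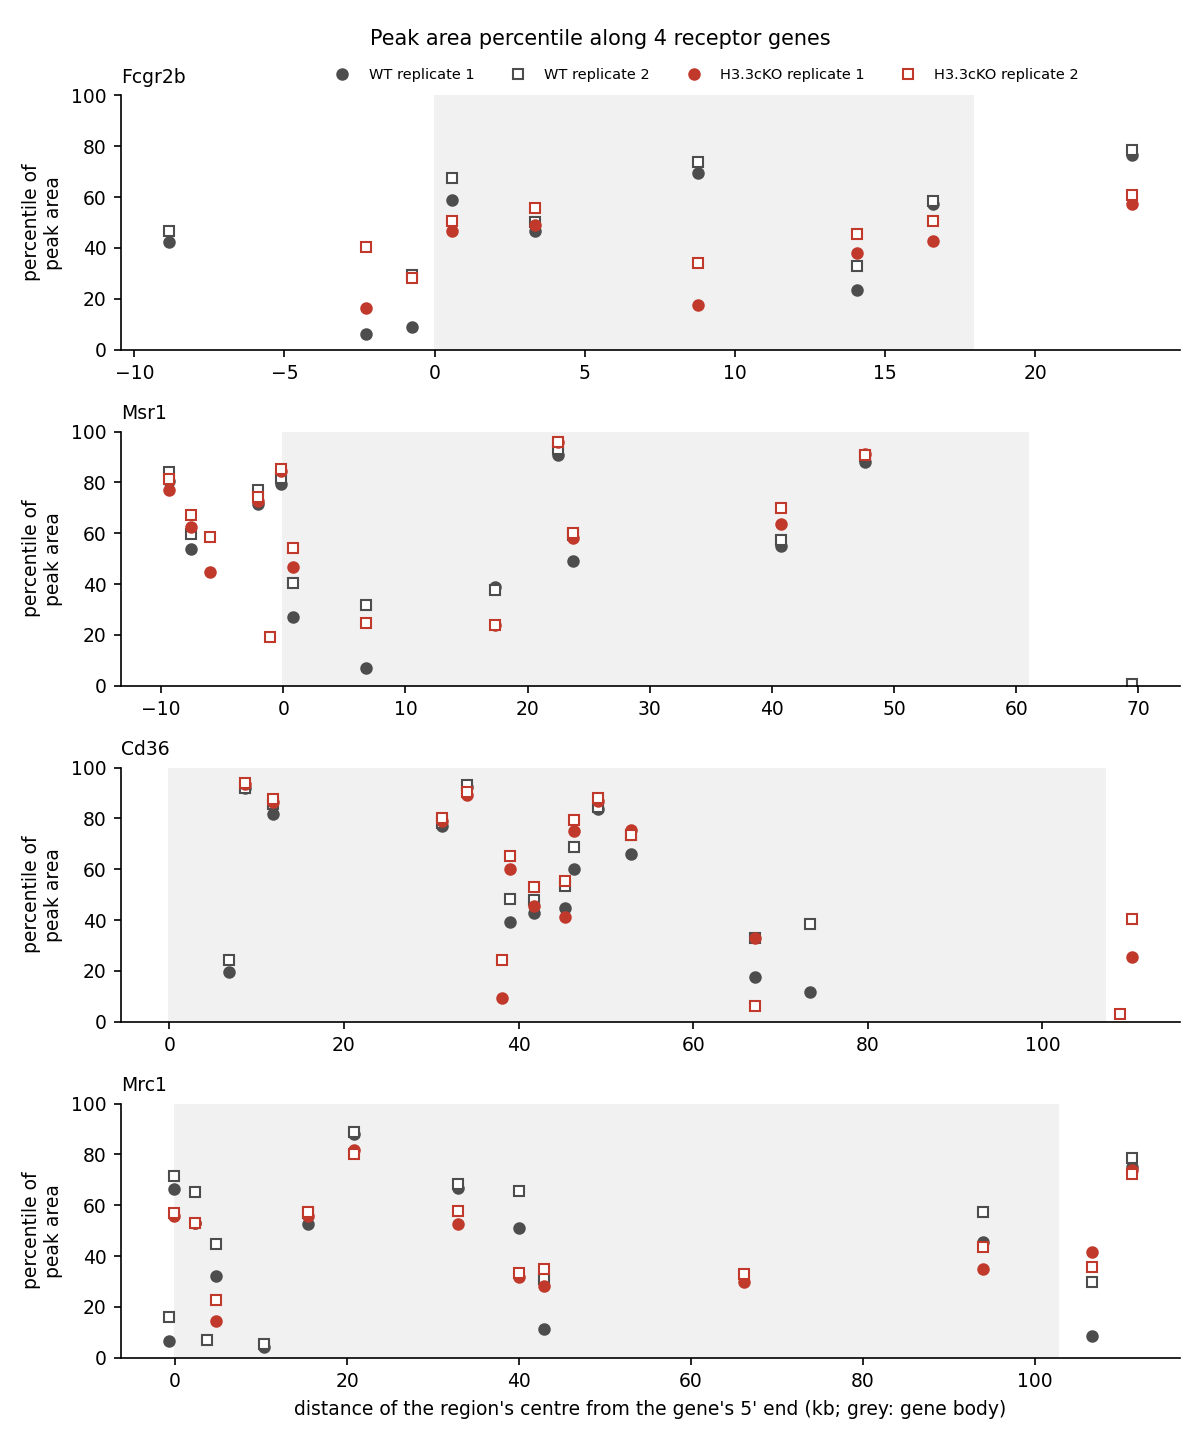
Points give the percentile of peak area within its library (y axis) against the distance of the region's centre from the 5′ end of the gene in kb (x axis) for Fcgr2b, Msr1, Cd36 and Mrc1, with the gene body shaded, grey for WT, red for H3.3cKO, filled circles for replicate 1 and open squares for replicate 2. The red points lie below the grey ones in the middle of Fcgr2b and over much of the first 40 kb of Mrc1, and above them near the inner start site of Cd36.

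Motifs in the 201-base summit windows were counted as letters, on both strands, and matches of different motifs could overlap. C/EBP letters (TTGCNNAA) were in 8 of the 35 Fc receptor windows (22.9%) and 11 of the 59 scavenger receptor windows (18.6%), beside 12.3% of all 71243 windows. The interferon-gamma-activated GAS letters (TTCNNNGAA) were in 17.1% and 10.2%, beside 6.10%, and the MiT/TFE box (TCANGTGA) in 2.86% and 8.47%, beside 3.25%. PU.1 (GAGGAAGT) was in 5.71% and 8.47% beside 11.0%, AP-1 (TGANTCA) in 14.3% and 16.9% beside 16.6%, RUNX (AACCACA) in 5.71% and 11.9% beside 8.38%, and the core of the interferon-stimulated response element (GAAANNGAA) in 8.57% and 6.78% beside 8.97%. A match is a description of the letters and not a bound site.

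By call, 4 of the 6 lower Fc receptor windows held C/EBP letters. So did 1 of the 3 higher windows and 1 of the 16 that did not pass. The 4 lower ones are the Fcgr2b and Fcer1g introns and both Fcgr3 regions shown with their sequences. The runs of 11 bases that the Fcgr2b intron shares with both Fcgr3 windows overlap these C/EBP letters. The Fcgr2b and Fcgr3 windows may therefore not be separate counts. Over the genome, C/EBP letters were in 14.1% of the lower, 11.8% of the higher and 11.5% of the regions that did not pass. AP-1 letters were in all 3 higher Fc receptor windows, at Fcgr1, Fcgr2b and Fcgr4. They were in 0 of the 6 lower windows and 1 of the 16 that did not pass. Over the genome they were in 28.3% of the higher, 11.6% of the lower and 15.9% of the regions that did not pass. At the scavenger receptor genes AP-1 letters were in 2 of 12 higher, 0 of 8 lower and 7 of 21 windows that did not pass. C/EBP letters were there in 4 of 12, 2 of 8 and 1 of 21. These motif counts rest on few windows and were not tested.

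Genes that work with these receptors were counted in the same way. At 18 genes of Fc receptor signalling, 9 of 197 regions were gained and 14 lost, and 27 of the 133 called in all libraries were higher and 26 lower, close to the background shares. The split varied by gene: Syk, the kinase that binds the phosphorylated gamma chain, had 0 higher and 4 lower of 9 tested regions with 1 gained and 3 lost. The guanine nucleotide exchange factor Vav1 had 6 higher and 1 lower of 10, Vav3 had 5 higher and 1 lower of 18 with 5 gained and 5 lost regions, and Inpp5d, the phosphatase recruited by Fcgr2b, had 4 higher and 2 lower of 9. The kinases Lyn (1 higher, 3 lower) and Fgr (0 and 1) had more lower than higher calls. So had the phosphoinositide 3-kinase subunit Pik3cd (0 and 3). The adaptors Gab2 (4 and 1) and Lcp2 (2 and 0) had more higher ones. Other genes with a call, Plcg2, Btk, Ptpn6, Lat2, Dok1, Rac2, Cbl and Clnk, had at most 2 called regions of a kind each.

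At 9 other Fc receptor genes, of which 6 had a region, 2 of 15 tested regions were higher and 3 lower, with 1 gained at Trim21, a cytosolic antibody receptor, and 2 lost at Fcrl5. The calls were 1 each, higher at Trim21 and Fcer2a and lower at Fcgrt, Fcrla and Fcrl5, and Fcamr, Fcer1a and Pigr had no region. At 19 other scavenger and uptake receptor genes, of which 17 had a region, 11 of 66 tested regions were higher and 18 lower, and 5 of 116 regions were gained and 16 lost. The shares over all regions were 18.3% higher, 18.7% lower, 3.72% gained and 7.25% lost. Mertk, a receptor for apoptotic cells, accounted for 5 of the lower and 5 of the lost regions, with no higher or gained one and a median log2 difference of -0.74. Stab2, a hyaluronan receptor, had 2 lower and 2 lost regions. Lrp1, an endocytic receptor, had 4 lost and 2 lower regions of 20, whereas Timd4, a phosphatidylserine receptor, had 1 gained and 2 higher regions of 5 (median log2 difference 1.03), and Axl, the relative of Mertk, had 2 gained and 1 higher of 6. Megf10 had 3 higher regions, the beta-glucan receptor Clec7a 2 lower ones, and Colec12, Scarb2, Stab1, Cd68, Cd163, Olr1, Scarf1, Cxcl16 and Mrc2 at most 2 called regions of a kind each. Ager had 5 regions and no call, and Scara3 and Scara5 had no region.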

How the data were processed

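The deposited data are 4 peak lists, 1 per ATAC-seq library, for WT and H3.3cKO BMDMs with 2 biological replicates each, and the titles of the samples give group and number. Paired reads had been aligned by the authors to mm10 with Bowtie2 2.5.1, and Genrich with default settings had called peaks library by library. Filters on reads, duplicates and any shift for Tn5 are not given in the sources used here. The main deposited value was the signal of a peak, an area under Genrich's curve of significance, which depends on peak width and on depth. The deposited −log10 p-value at the summit was an alternative, the deposited score (the area scaled to length) was read only to identify the columns, and the q-value column of the authors' lists was −1 throughout. No list gives reads or depth, so no interval for counting error can be given, and a site just under the caller's area limit of about 200 is absent from a list.

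Peaks sharing 1 bp or more were joined into regions with Python 3.11.15 (pandas 2.3.3, numpy 2.4.6), and a region was assigned to a gene if it touched the gene body extended by 10 kb. The largest peak of a library stood for the region. Regions were described as intronic, exonic, upstream or downstream by their centre, so a summit can lie elsewhere. Regions called in all 4 libraries were compared with limma 3.58.1 (R 4.3.3) on quantile-normalised log2 areas with an intensity trend and Benjamini-Hochberg adjustment at 0.05, all 4 libraries and no block. The limma script was tested on simulated data. The study compared read counts with DiffBind, which needs reads that were not used here. The limma p-values rest on the spread between 2 libraries per genotype, moderated with that of other regions of similar area. Gene models were GENCODE vM21 and sequence was the RefSeq assembly of mm10, with coordinates counted from 1. A marker gene counted as open if a peak lay within 500 bp of a start site.

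The 10 genes, the gene and marker lists, the motifs and the tests were chosen with earlier results of these data known. H3f3a and H3f3b came first. Regions were then named if they covered a start site of the 10 genes, were found in 1 genotype only, passed limma, or were among the 3 with the largest separate percentile difference per family and direction, and other regions are given by range. Pathway genes were named if a region was gained, lost or passed. The values of 2 listed genes are not reported here. Alternatives were windows of 5 and 25 kb, peaks above the median area of their list, lists of equal length, coverage of at least 50% of a region, median centring, the summit value, summed areas, a replicate block and leaving out each library.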

Additional observations from a re-analysis of the deposited data

How the results depend on the processing

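Counts at the receptor genes were small and moved with the peak threshold and the window. With peaks above the median area of their list, 0 Fc receptor regions were gained, 1 scavenger receptor region was gained and 2 were lost, and limma called 1 Fc receptor region higher and 2 lower and 4 scavenger receptor regions lower. None of the 11 gained or lost regions kept its call there, and 8 did with lists of equal length, where 3 Fc receptor regions were gained and 2 scavenger receptor regions lost. A window of 5 kb gave 0 gained and 1 lost Fc receptor region, and 25 kb gave 5 higher and 10 lower Fc receptor regions. Median centring gave 5 higher Fc receptor regions, and the Cd36 region at chr5:17854215-17855094 then differed by 0.0073 on the log2 scale in place of -0.17. Left out 1 at a time, the libraries gave 1 to 3 gained and 2 to 4 lost Fc receptor regions, 4 to 8 gained and 4 to 8 lost scavenger receptor regions, 0 to 3 higher and 4 to 6 lower Fc receptor regions, and 6 to 11 higher and 1 to 6 lower scavenger receptor regions. A lone library was assumed to vary like the pair of the other genotype, and a gained or lost call then needed 1 library in place of 2. Both counts of 0 higher Fc receptor regions came without WT replicate 1 or without WT replicate 2, where 0 of the 3 passed.

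Replicate numbers carry no shared animal or day in the labels. Across regions, the deviations of the first WT and first H3.3cKO library from their genotype means correlated at 0.116. The second libraries mirror these deviations and add no further pair. That value was taken after quantile normalization, so it leaves out the higher percentiles of the second library in both genotypes. With a replicate block, 3 Fc receptor regions were higher and 6 lower, and 12 scavenger receptor regions were higher and 8 lower, and all 29 calls passed. Of the 29 called regions, 27 kept their call under median centring, 23 by the summit value and all 29 with summed areas. With peaks above the median 15 of 17 regions that had a value kept it, and with equal lists 28 of 28. Leaving out a library kept 11 (WT replicate 1), 12 (WT replicate 2), 19 (H3.3cKO replicate 1) and 19 (H3.3cKO replicate 2). The cause of these differences was not tested. Coverage of 50% was applied to gained and lost counts only.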
